A study of Bos taurus with 64 samples.

Results

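CEBPD encodes the transcription factor C/EBP-delta, and 2 of the 5449 transcripts on the array carried its name. They were the probe that the array files name CEBPD and the probe of the transcript TC310369, which the files describe as C/EBP-delta. Both were chosen by name, after the stress difference of these cows had shown them higher with stress. The stress difference is therefore given as a description without a test, and tests were kept for diet, muscle and the variation between cows of the same group.

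C/EBP-delta belongs to the C/EBP family, basic leucine zipper proteins that bind DNA as dimers. In many tissues the gene has little activity at rest and is switched on quickly by glucocorticoids, by cytokines that signal through STAT3, and by cAMP. In muscle it has been studied mainly for its part in the wasting brought about by glucocorticoids and chronic disease, and in fat cells for its early part in differentiation.

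RNA of the M. longissimus thoracis (LT) and the M. semitendinosus (ST) of 32 Normand cows, 4.5 ± 0.1 years old, was hybridized to 64 single-colour Agilent arrays, 1 for each muscle of each cow. All cows were finished for 101 d on straw and concentrate with 40 g of lipids per kg from linseed and rapeseed. In the stress group, 16 cows were driven alone in a lorry and led through a labyrinth for 30 min before slaughter, and in the limited stress group 16 cows travelled with a companion and were handled calmly. In each stress group, 8 cows received this lipid-rich diet alone (control diet) and 8 received it with vitamin E and plant extracts rich in polyphenols (EP diet). The muscles were excised within 15 min after slaughter, so a single time was sampled after a stress that joined isolation, transport and exercise.

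The 60 bases of the CEBPD probe are shown because the level reported throughout was read from them, and the first 30 bases of the TC310369 probe because its name rests on a description. The third line holds 30 bases of a probe of Target334, a set of 5 custom probes without a gene name in the files. The capitals in it mark the 20 bases of the forward CEBPD primer that the study used for qPCR.
CEBPD probe: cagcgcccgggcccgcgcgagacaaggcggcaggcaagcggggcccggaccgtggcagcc
TC310369 probe, bases 1 to 30: gcagtaatagacgagaggacaaaggttggc
Target334 probe, bases 7 to 36: aagtcGTTGCCTTTCCCCCATGAGAgtggg

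The CEBPD probe was placed by the files at chr14:18786077-18786136 of the bovine build Btau_3.1, on the plus strand, from base 504 of the transcript AM980827, and 81.67% of its bases were G or C. The TC310369 probe was placed on another chromosome, at chr10:46754384-46754443 on the minus strand, from base 1180 of its transcript, with 45% of G or C. The description of TC310369 refers to a sheep sequence, and the placement of the files was not checked here against a genome. Neither probe shared a run of 15 bases with any other probe of the array. The forward primer lay whole in 1 probe of the array, that of Target334, and the reverse primer in 0. Target334 is not called CEBPD here, and its values are given beside those of the members.

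Levels are given as a percent of the 75th percentile of the signals on the same array, and differences as log2 ratios of that level. This percentile ranged from 2470 to 4202 signal units over the arrays. The signals of both members lay between 54.2 and 3879 units, and 128 of their 128 spots were well above background. Over all spots, this share ran from 71.4% to 80.9% per array. Transcripts of muscle fibres summed to between 38239% and 66908% of the 75th percentile over the 64 arrays, and the measured erythroid markers to between 0.146% and 1.94%.

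In the LT of cows with limited stress, CEBPD had a median of 2.42% on the control diet, from 1.74% to 3.86%, and of 2.67% on the EP diet, from 1.65% to 6.33%. In the LT of stressed cows, the median was 8.74% on the control diet, from 3.96% to 30.0%, and 7.93% on the EP diet, from 3.79% to 12.3%. On the control diet the lowest stressed cow lay above the highest cow with limited stress, and over both diets 14 of the 16 stressed cows lay above all 16 cows with limited stress. The other 2 were cow303 and cow305.

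The ST had the same order of groups. With limited stress, CEBPD had a median of 3.77% on the control diet, from 2.76% to 5.02%, and of 3.98% on the EP diet, from 2.97% to 13.6%. With stress, the median was 10.7% on the control diet, from 6.83% to 47.2%, and 8.63% on the EP diet, from 4.92% to 16.3%. The control diet groups again did not overlap. On the EP diet they did. Cow280, at 13.6%, stood above 6 of the 8 stressed cows, and the next cow with limited stress was at 5.05%. At the other end, 13 of the 16 cows with limited stress lay below all stressed cows in the ST, and 12 in the LT.

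**Figure D1:**
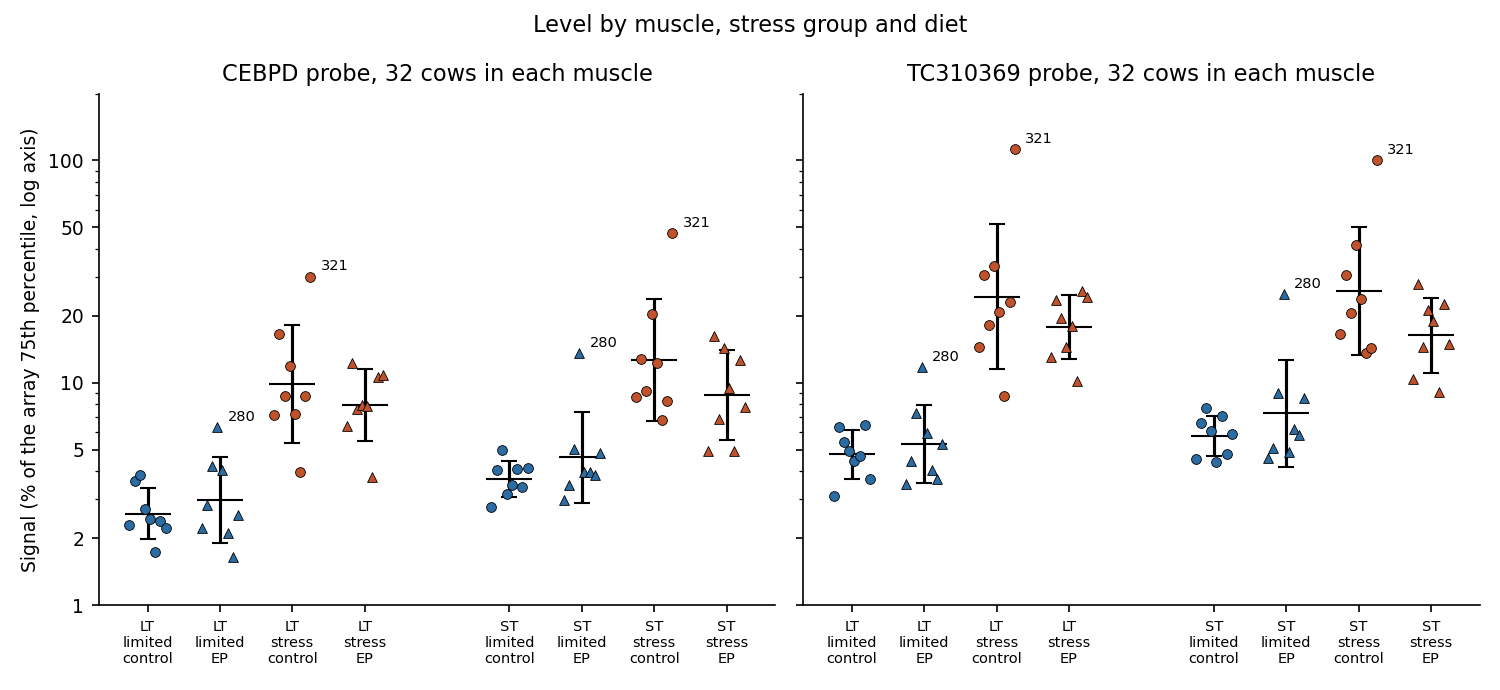
Level of the CEBPD probe and of the TC310369 probe as a percent of the array 75th percentile, on a log axis, for each cow by muscle, stress group and diet. The lines show the mean and SD of the log2 levels of 8 cows, blue points are limited stress and orange points stress, and cow321 is the highest cow of each stressed control diet group.

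From the lowest to the highest, the groups ran LT limited control, LT limited EP, ST limited control, ST limited EP, LT stress EP, ST stress EP, LT stress control and ST stress control, whether by mean or by median. The mean log2 level went from -5.27 ± 0.38 (SD, n = 8) in the first to -2.98 ± 0.91 (SD, n = 8) in the last. Neighbours in this order differed by less than the larger of their SDs, except at the step from ST limited EP to LT stress EP.

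TC310369 showed the same separation of the stress groups. In the LT its median was 4.83% and 4.89% with limited stress on the control and EP diets, and 22% and 18.8% with stress. In the ST the medians were 6.0% and 6.03% with limited stress, and 22.2% and 17.0% with stress. The control diet groups did not overlap in either muscle, and 15 of the 16 cows with limited stress lay below all stressed cows in both, the exception being cow280. The highest stressed cow was cow321 in both muscles, at 112% in the LT and 100.3% in the ST, where the next stressed cows were at 33.5% and 41.6%.

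The log2 difference (stress / limited stress) of CEBPD over both diets was 1.68 (SE 0.22, n = 16 cows per group) in the LT and 1.36 (SE 0.23) in the ST, which is 3.21-fold and 2.56-fold. For TC310369 it was 2.05 (SE 0.23) in the LT and 1.67 (SE 0.24) in the ST. These differences chose the members, and limma called 2.2% of 4311 LT transcripts and 1.48% of 4246 ST transcripts higher with stress, and 1.53% and 2.12% lower. Within the slides that held the arrays, the difference of CEBPD ran from 1.02 to 2.60 over the 4 slides of the LT. Over the 5 slides of the ST it ran from 1.003 to 1.75. Some slides held few cows of 1 stress group. The highest ST value came from a slide with 1 stressed cow and 3 cows with limited stress. Another ST slide, at 1.31, had 6 stressed cows, cow321 among them, and 1 cow with limited stress. The lowest LT value came from a slide with 2 stressed cows and 6 with limited stress. Without cow321 the difference of CEBPD over all slides was 1.57 in the LT and 1.22 in the ST. In a tissue extract, more cells with the transcript and more transcript per cell cannot be told apart.

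The 5 probes of Target334 had log2 differences (stress / limited stress) from 1.73 to 1.97 in the LT and from 1.39 to 1.59 in the ST, also without a test. Around the means of the 4 groups, each of them varied with CEBPD between cows, with r from 0.89 to 0.94 in the LT and from 0.97 to 0.99 in the ST (32 cows each). The 5 probes had r from 0.97 to 0.99 with one another in each muscle.

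The EP diet was compared with the control diet to learn whether the supplement altered the transcripts of the muscle. CEBPD differed by -0.06 on the log2 scale (95% interval -0.50 to 0.38) in the LT and by -0.10 (-0.57 to 0.36) in the ST, with adjusted p = 0.999 and 0.967 (limma, Benjamini-Hochberg). TC310369 differed by -0.15 and -0.16, for the LT and ST, with adjusted p = 0.999 and 0.954 (limma). Among all transcripts limma called 0% for diet in either muscle, where an unadjusted p under 0.05 was reached by 407 of 10441 LT probes and 531 of 10305 ST probes. The sign of the CEBPD value turned in both muscles without cow321.

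Among stressed cows the highest levels belonged to the control diet, and the stress difference of CEBPD was 1.94 on the control diet against 1.43 on the EP diet in the LT, and 1.78 against 0.93 in the ST. Limma's test of this difference of differences gave -0.51 (SE 0.43, adjusted p = 0.9999) for the LT. For the ST it gave -0.84 (SE 0.46), with adjusted p = 0.969 and 95% interval -1.78 to 0.09. For TC310369 it was -0.62 (SE 0.47) in the LT and -0.995 (SE 0.48) in the ST, where the unadjusted p was 0.0459 and the adjusted p 0.969 (limma). None of these passed the threshold, and limma called 0% of transcripts, where 276 LT probes and 491 ST probes reached an unadjusted p under 0.05. Without cow321 the ST value of CEBPD was -0.57, and without cow280 it was -0.62.

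The LT is a support muscle of the back and the ST a muscle of the hind limb used in locomotion. In cows with limited stress CEBPD was lower in the LT than in the ST of the same cow in 15 of 16 cows, by 0.58 ± 0.41 on the log2 scale (SD, n = 16). The fit of all 64 arrays gave -0.58 (SE 0.23) with adjusted p = 0.0374 (limma, Benjamini-Hochberg), and -0.58 with adjusted p = 0.0017 with the cow as a replicate block. Of all transcripts, 38.4% were called between the muscles in these cows and 22.6% were lower in the LT. The call was lost under 3 other ways of scaling the arrays, where the difference was -0.26, -0.30 and -0.40 with adjusted p = 0.470, 0.162 and 0.175 (limma). No slide held both muscles, so muscle and slide cannot be told apart.

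In stressed cows CEBPD was lower in the LT in 11 of 16 cows. The mean difference was -0.25 (SE 0.23, adjusted p = 0.413, limma), where 36.3% of transcripts were called and 20.5% were lower in the LT. TC310369 differed by -0.37 (SE 0.24, adjusted p = 0.233, limma) with limited stress and by 0.02 (adjusted p = 0.964, limma) with stress, where 8 of 16 cows lay on each side. With the cow as a replicate block, the limited stress value of TC310369 passed the threshold (adjusted p = 0.057, limma). The stress difference itself was 0.33 larger in the LT than in the ST for CEBPD (95% interval -0.31 to 0.97, adjusted p = 0.999, limma) and 0.38 larger for TC310369 (-0.30 to 1.06, adjusted p = 0.999, limma). None of the transcripts was called for this difference, 0% of 4230, with 278 of 10254 probes at an unadjusted p under 0.05 in limma.

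**Figure D2:**
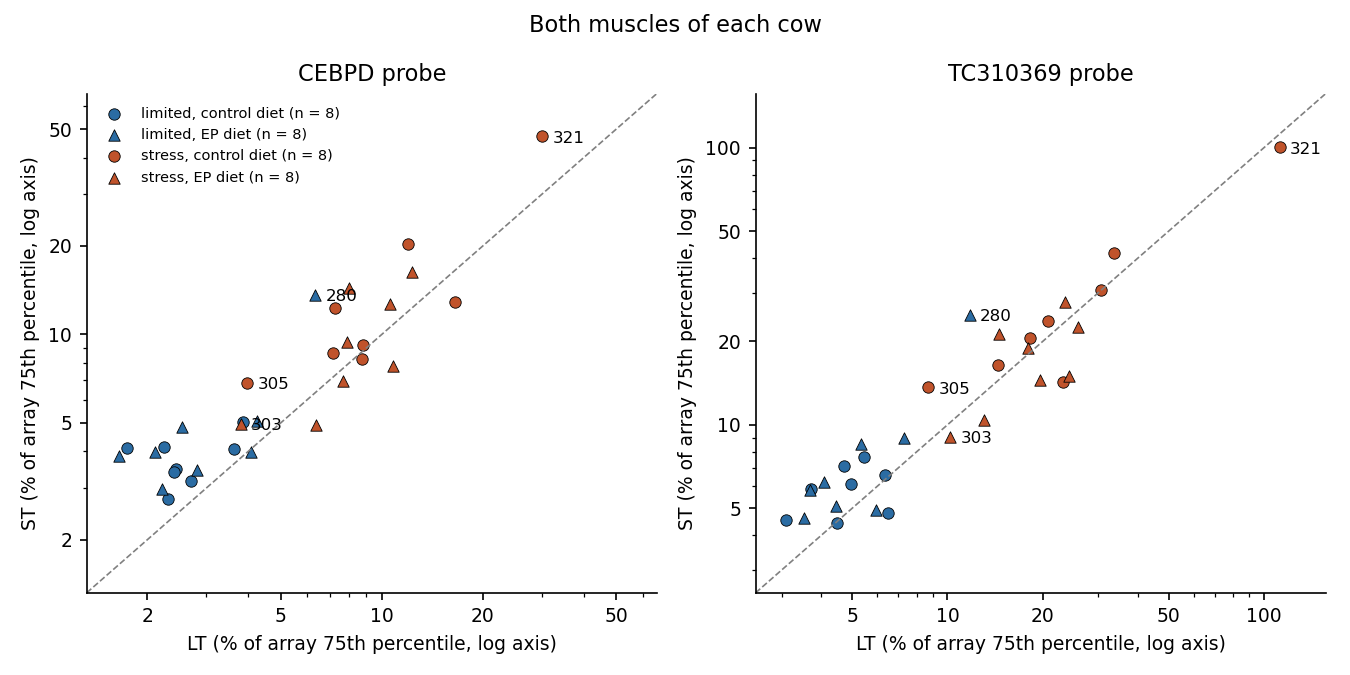
Level of CEBPD and of TC310369 in the ST (vertical axis) against the LT (horizontal axis) of the same cow, as percents of the array 75th percentile on log axes, with the line of equal levels. Blue points are 16 cows with limited stress and orange points 16 stressed cows, circles the control diet and triangles the EP diet, and cow321 and cow280 stand apart in both muscles.

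A cow with much CEBPD in one muscle tended to have much in the other. Among stressed cows the level in the LT and the ST had r = 0.84 (permutation test with 100000 resamples, two-sided, adjusted p = 0.0002 over 22 relations, n = 16) and rho = 0.78, and r = 0.62 (permutation p = 0.0167) without the 2 cows farthest from the median. Centred within slides r was 0.87. Among cows with limited stress r was 0.69 (permutation test, adjusted p = 0.00635) with rho = 0.43 (permutation p = 0.0947), and it fell to 0.27 (permutation p = 0.354) without the 2 farthest cows, so that it rests on them. TC310369 gave r = 0.89 with stress and 0.77 with limited stress, and 0.78 and 0.40 without the 2 farthest cows.

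The CEBPD and TC310369 probes, on different transcripts in the files, varied together from cow to cow. Their r was 0.83 with limited stress and 0.95 with stress in the LT, and 0.96 and 0.98 in the ST (permutation tests, n = 16 each, adjusted p at most 0.0003). Without the 2 cows farthest from the median it stayed between 0.62 and 0.95. The CEBPD level was not called against the 75th percentile of the array or the percent of spots well above background (permutation tests over the same 22 relations), and r lay between -0.13 and 0.28.

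The transcripts that varied with CEBPD between cows of the same group were sought by its slope in a limma model that also held the 4 group means, so that the difference between stressed cows and the others was taken out. In the LT, 81 of 4310 transcripts had a positive slope (1.88%) and 74 a negative slope (1.72%). In the ST the counts were 38 (0.895%) and 34 (0.801%) of 4245. Among them 11 with a positive slope were called in both muscles, 13.6% of the LT list and 28.9% of the ST list, and the muscles of a cow are not independent of each other. These were TC310369, Target334, BTG1, PDK4 and CDKN1A with 1 custom set each for PDK4 and CDKN1A, GABARAPL1, LIMD2, and the custom sets Target1525 and Target717, which have no gene name here. With a negative slope 4 were called in both, 5.41% and 11.8% of the lists: BC126522, Target469, Target859 and Target1343 (PRPF19, a splicing factor). No transcript was called in opposite directions.

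Cow321 held the highest CEBPD level in both muscles, and the lists depended on it. Without this cow the calls fell from 155 to 59 in the LT, of which 27 were among the first 155. In the ST they fell from 72 to 3, which were TC310369, Target334 and Target1525. Without cow280 there were 124 in the LT and 309 in the ST. In every fit on the CEBPD or TC310369 level of the same muscle, 10 transcripts had a positive slope in the LT, namely TC310369, Target334, BTG1, F3, LTBP2, PDK4 with its custom set Target1250, and the unnamed DV777371, ENSBTAT00000011388 and TC323068. The same 3 as without cow321 did so in the ST.

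BTG1, which restrains cell proliferation, had the highest r with CEBPD of all transcripts with a gene name in both muscles. In the LT its level had a median of 85.7% with limited stress, from 56.1% to 143%, and of 129% with stress, from 82.6% to 626%. In the ST the medians were 73.6%, from 63.8% to 160.5%, and 99.7%, from 73.0% to 409%. Cow280 was the highest cow with limited stress and cow321 the highest stressed cow in both muscles, as they were for CEBPD. BTG1 was higher with stress in the LT, by 0.72 on the log2 scale (SE 0.17, adjusted p = 0.0136, limma), and its value of 0.38 (SE 0.16) was not called in the ST. Around the group means r was 0.82 in the LT (permutation test over 32 cows, adjusted p = 0.0108 over all transcripts) and 0.74 without the 2 farthest cows. In the ST r was 0.78 (permutation test, adjusted p = 0.0495) and 0.52 without them. It was present in each stress group of the LT, with r = 0.86 with limited stress and 0.83 with stress.

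PDK4, the kinase that shuts off pyruvate dehydrogenase and turns muscle from glucose to fatty acids, was much higher with stress. In the LT its median was 38.3% with limited stress, from 7.4% to 96.7%, and 399% with stress, from 79.0% to 774%. In the ST the medians were 14.6%, from 4.2% to 37.4%, and 149%, from 28.5% to 901%. The groups overlapped in both muscles, and cow321 was the highest stressed cow in both. The log2 difference was 3.39 (SE 0.33) and 3.36 (SE 0.33), called by limma in both muscles. Around the group means PDK4 varied with CEBPD with r = 0.68 in the LT (permutation test, 32 cows, adjusted p = 0.0215) and 0.69 in the ST (adjusted p = 0.0495), and r = 0.60 and 0.57 without the 2 farthest cows. Its custom set Target1250 gave 0.67 and 0.69.

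**Figure D3:**
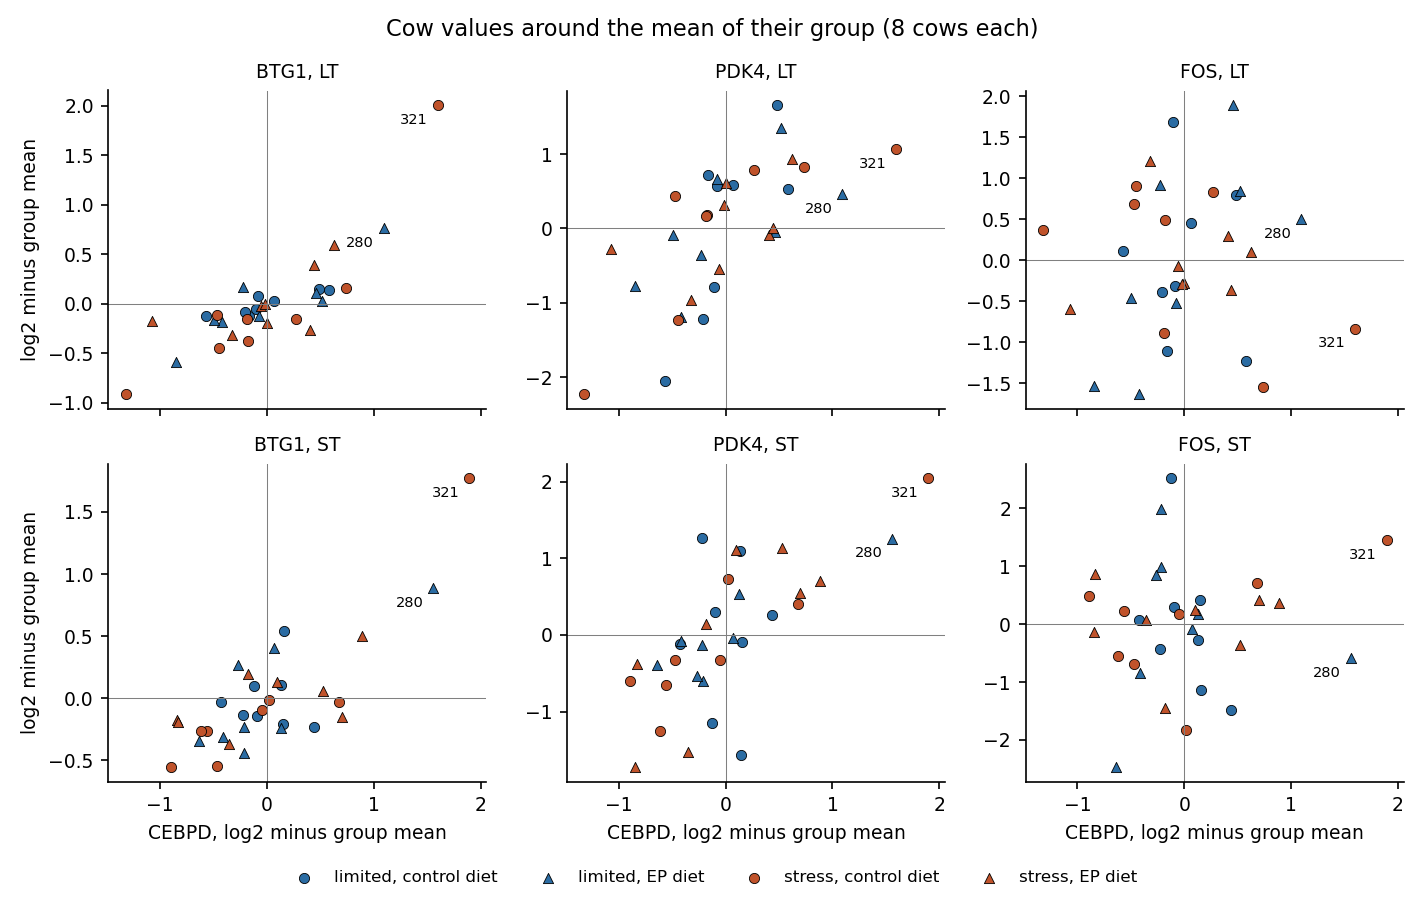
Log2 level of BTG1, PDK4 and FOS (vertical axes) against that of CEBPD (horizontal axis) in the LT and ST, each as the distance of a cow from the mean of its group of 8. BTG1 (r = 0.82 and 0.78) and PDK4 (0.68 and 0.69) lie along a rising line and FOS (0.03 and 0.12) does not, and cow321 and cow280 stand at the right end.

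In the LT the other named transcripts with the highest r were F3, the tissue factor that starts blood coagulation, at 0.72 (permutation test, adjusted p = 0.0392) and at 0.71 for its custom set Target617, LTBP2, a protein of the extracellular matrix, at 0.68, SRPX at 0.66 and MYO19, a myosin of mitochondria, at 0.66. F3 was low, with medians of 1.9% with limited stress and 2.6% with stress, and was not called for stress (adjusted p = 0.484, limma). The lowest r belonged to WNT9A, a Wnt ligand, at -0.70 with 1 array value missing, to GAMT, which makes creatine, at -0.68 and at -0.67 for its custom set Target700, and to Target111 (ANXA6, a calcium-dependent membrane protein) at -0.67. Cow280 and cow321 had the lowest GAMT of their stress groups in both muscles.

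Among the next in the ST were GABARAPL1, a protein of autophagosomes, and MT2A, a metallothionein, each at r = 0.62, and LOC782032 at 0.60. These were called by their slope but not by the permutation test of r over all transcripts (adjusted p = 0.462 for each). For GABARAPL1 cow321 was at 2113%, where the next stressed cow was at 452%, and r fell to 0.16 without the 2 farthest cows. Among transcripts with a gene name, the lowest r belonged to ITGB1BP2 (melusin, a protein of striated muscle) at -0.66 and Target555 (EBP, an enzyme of cholesterol synthesis) at -0.65. Next were Target1343 (PRPF19) at -0.65 and Target845 (IMP3, a protein of ribosome assembly) at -0.62. None of them was called by the permutation test (adjusted p from 0.384 to 0.462), and Target845 was not called by its slope. Cow321 was the lowest stressed cow for each. Without the 2 farthest cows, r was -0.40, -0.22, -0.40 and -0.33, in the same order.

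**Figure D4:**
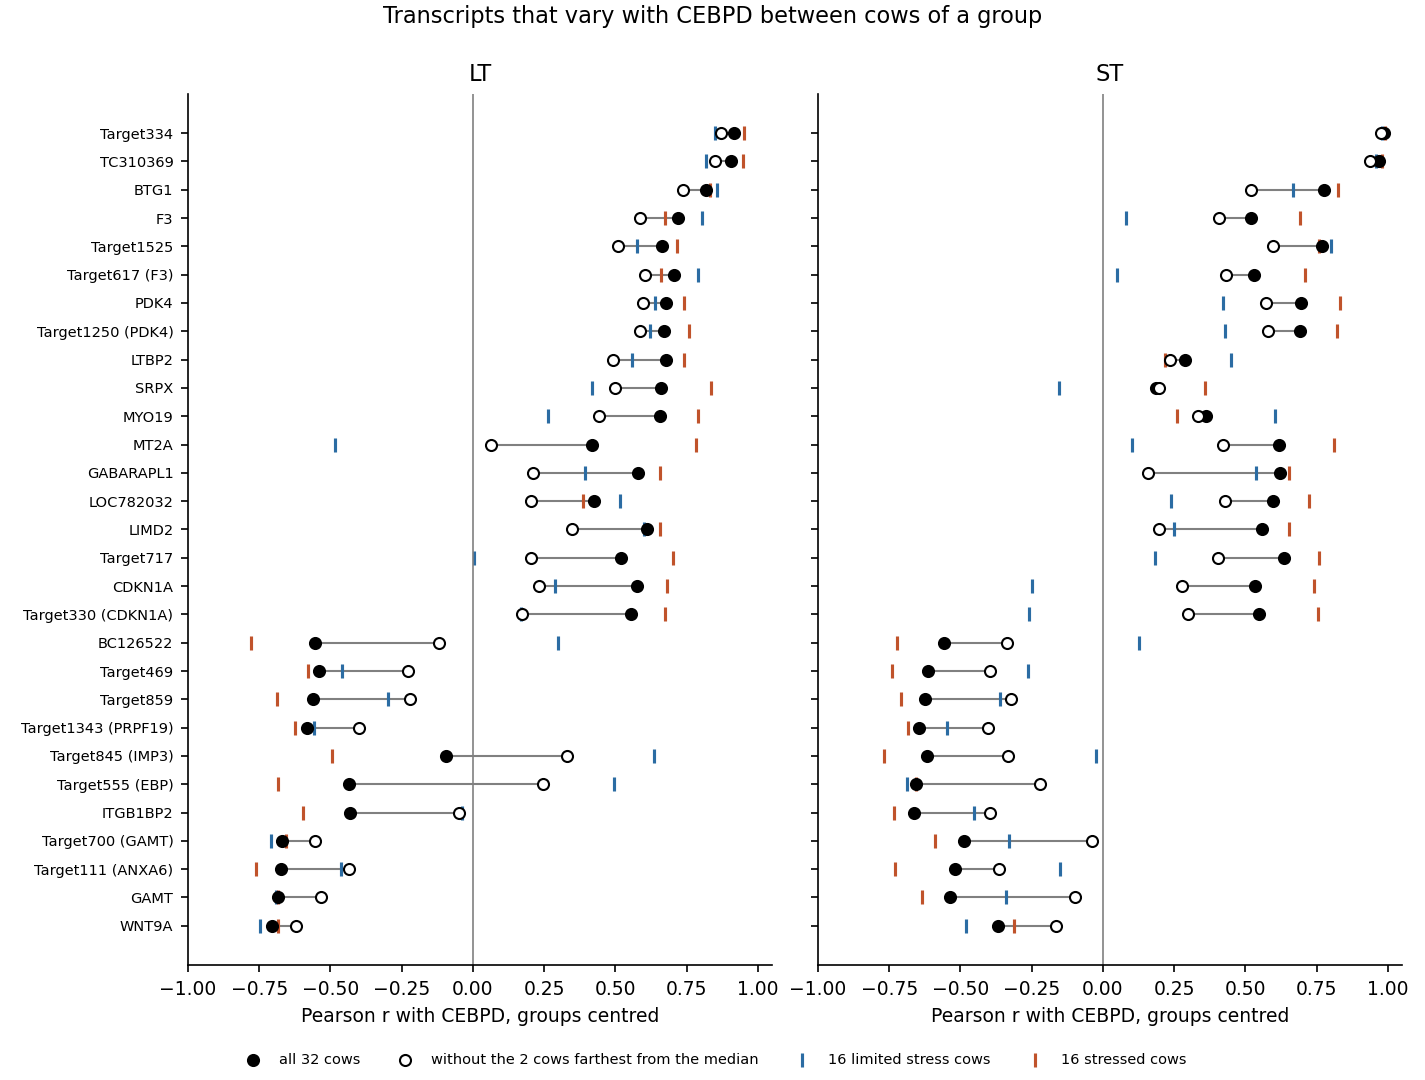
Pearson r of each named transcript with CEBPD around the group means in the LT and ST. Filled points are all 32 cows, open points leave out the 2 cows farthest from the median, and bars are the 16 cows of 1 stress group, with GABARAPL1 moving from 0.62 to 0.16 in the ST.

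Within a single stress group, 16 cows left few calls. By permutation tests adjusted over all transcripts, 10 transcripts had a positive and 6 a negative r in the LT with limited stress, and 2 had a positive r in each of the other 3 combinations of muscle and stress. Among transcripts with a gene name, here and for the other muscle and stress groups, the highest in the LT with limited stress were BTG1 at 0.86, RPS6KA5, a kinase downstream of MAP kinases, at 0.84 and Target1012 (LPL, lipoprotein lipase) at 0.83. BTG1 and RPS6KA5 were past the threshold there (permutation tests, adjusted p = 0.0814 for both), and Target1012 was not. TC310369, with r = 0.82 there, had an adjusted p of 0.119 by the same permutation test. In stressed cows the r of the 3 was 0.83, -0.09 and 0.09. In the LT with stress the highest of these were SRPX and BTG1 at 0.83 and MGP, an inhibitor of calcification, at 0.82.

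Among transcripts with a gene name in the ST with limited stress, the highest r belonged to PDLIM1, a protein of the actin cytoskeleton, at 0.77 and its custom set Target1251 at 0.76, and to Target76 (AKAP10) at 0.72. PDLIM1 had r = -0.66 in the stressed cows. Neither value of PDLIM1 was called (permutation tests, adjusted p = 0.829 with limited stress and 0.267 with stress). Cow280 had the highest PDLIM1 of the cows with limited stress, and cow321 the lowest of the stressed cows. Without the 2 farthest cows of each stress group, r was 0.45 and -0.29. In the ST with stress the highest transcripts with a gene name were Target1046 (MGC127874) at 0.84 and PDK4 and BTG1 at 0.83. The 2 calls of each of these groups, and of the LT with stress, were TC310369 and Target334. The difference of r between stress groups was not tested.

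Of the 81 transcripts with a positive slope in the LT, 10 were higher with stress (12.3%), where 2.18% of all transcripts in this fit were. In the ST it was 10 of 38 (26.3%), where 1.46% of all were. In each muscle the 10 included TC310369, which had been chosen for its stress difference, and Target334, which holds a CEBPD primer. PDK4 and its custom set Target1250 were counted separately. The shares among the followers are thus partly fixed by the choice of the members. By these counts, most transcripts that varied with CEBPD between cows were not called between stress groups.

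The lists of other genes were read against these shares. Of 25 glucocorticoid response genes, 8 had a probe, and 11 of their 12 transcripts were tested. In each muscle 3 of the 11 were higher with stress and 0 were lower. These were PDK4, its custom set Target1250 and DUSP1, a phosphatase of MAP kinases, at 0.34 in the LT and 0.38 in the ST. The median log2 difference (stress / limited stress) of the list was 0.38 in each muscle, where that of all transcripts was -0.05 in the LT and -0.06 in the ST. On the CEBPD level within groups, 4 of the 11 transcripts had a positive slope in the LT, those of PDK4 and CDKN1A with their custom sets. In the ST there were 6, the same 4 with MT2A and UCP3, an uncoupling protein of mitochondria. Without cow321 the slopes of PDK4 and Target1250 were still called in the LT, and no transcript of the list was called in the ST. The median r of the list was 0.44 in the LT and 0.53 in the ST, where all transcripts had -0.01 and -0.05.

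CDKN1A, an inhibitor of the cell cycle, was among these positive slopes and rested on 1 cow. Cow321 was at 2215% in the LT and 2189% in the ST, and the next stressed cows were at 107% and 178%. It was not called for stress, at 0.90 (SE 0.33) for the LT and 0.35 (SE 0.33) for the ST. MT2A was higher in cow321 than in any other in both muscles, at 61.5% and 172%. Without the 2 farthest cows, r with CEBPD was 0.23 and 0.28 for CDKN1A, and 0.07 and 0.42 for MT2A.

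Of the signals known to switch CEBPD on, HIF1A, the oxygen-sensitive transcription factor, had a positive slope on CEBPD in the LT with r = 0.58 and 0.31 in the ST. Of the 9 transcripts of this list tested, 2 were higher with stress in the LT and 0 in the ST. Of all transcripts, 2.18% and 1.46% were. These 2 were a gene and its custom set. Positive slopes on CEBPD numbered 1 in the LT, that of HIF1A, and 2 in the ST. STAT3, TLR4, MYD88, CREB1 and TNFRSF1A had no call for stress in either muscle. Of the C/EBP family, only CEBPA and CEBPZ besides CEBPD could be matched by gene name to a tested transcript here. Their log2 differences (stress / limited stress) were -0.31 (LT) and -0.21 (ST) for CEBPA and -0.04 and -0.02 for CEBPZ, none of them called. The paper reports CEBPB as higher with stress in the LT only. No tested transcript was matched to CEBPB here, and many custom sets have no gene name. CEBPZ had a positive slope on CEBPD in the LT, with r = 0.56, and r = 0.48 without a call in the ST.

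Some other basic leucine zipper factors were also higher with stress, and none of those tested had a called slope on CEBPD. Of 10 transcripts tested, which belong to 6 genes, 5 were higher in the LT and 4 in the ST. Of all transcripts, 2.18% and 1.46% were. The called genes were FOS with its custom set Target678, ATF3 and FOSL1. JUN, JUNB and HLF were not called in either muscle. FOS, an immediate early gene, had log2 differences of 1.31 (LT) and 1.61 (ST). For ATF3, a factor of the stress response, they were 1.45 and 1.95, and for FOSL1 1.74 and 1.69. FOSL1 was very dim, with medians of 0.27% (LT) and 0.19% (ST) with limited stress, and 0.98% and 0.64% with stress. With limited stress, FOS had medians of 208% and 90.0%. At so low a signal the size of the FOSL1 difference is uncertain. FOSL1 and its custom set Target677 were among the 5 calls of the LT, and FOSL1 among the 4 of the ST. A probe was tested with 11 of 32 arrays well above background, which the 16 stressed cows alone could supply. The calls of so dim a transcript are therefore not counted as support. Around the group means, r with CEBPD lay between -0.31 and 0.40 over the 10 transcripts of both muscles, the highest being Target677 (FOSL1) in the ST, which had r = 0.66 in the stressed cows. The median r of the list was -0.02 in the LT and 0.13 in the ST. Cow321, the highest of the 16 stressed cows for CEBPD, was the 14th highest for FOS and the 4th highest for ATF3 in the LT, and the highest for both in the ST.

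No tested marker of other cell types had a call for stress or a called slope on CEBPD in either muscle. By the median log2 difference (stress / limited stress), the satellite cell list was lowest in the LT, at -0.54, and had -0.38 in the ST. The adipocyte list was lowest in the ST, at -0.68, and had -0.23 in the LT. All transcripts had -0.05 (LT) and -0.06 (ST). Their summed levels overlapped between stress groups. In the LT the leukocyte sum ran from 2.03% to 8.19% with limited stress and from 3.23% to 9.53% with stress, the adipocyte sum from 38.4% to 486% and from 14.3% to 433%, and the fibroblast sum from 213% to 1204% and from 281% to 969%. For the ST the leukocyte sum ran from 3.17% to 10.3% and from 2.66% to 10.09%, the adipocyte sum from 38.0% to 749% and from 16.2% to 508%, and the fibroblast sum from 405% to 1338% and from 260% to 2044%. The leukocyte list had 2 of 8 genes on the array, and the neutrophil and endothelial lists 1 of 5 each. Each of these lists had 1 tested transcript per muscle, and the erythroid list had 1 in the LT and 0 in the ST. The absence of a call thus says little about these cell types.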

How the data were processed

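The authors read the single-colour arrays with Feature Extraction of Agilent and deposited the intensity of each spot after background subtraction, with flags for spots well above background, saturated or uneven. The deposited table held the same intensities (892800 of 892800 values within 1e-06), without scaling. Per the labels, stress group, diet and muscle were assigned; the cow number pairs the muscles of a cow, and the consensus correlation within a cow was 0.407. The slaughter period, a term of the authors' model, is not in the labels and was not in the fit.

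Each array was divided by the 75th percentile of its 13414 spots that are no controls and its log2 taken. A probe was tested if 11 or more of the 32 arrays of a muscle had it well above background, with limma 3.58.1 in R 4.3.3, two-sided, with Benjamini-Hochberg adjustment over the probes. The call of a transcript needed 80% or more of its probes past an adjusted p of 0.1 on the same side of 0. The scripts were tested on simulated data. The slope model had the CEBPD log2 level and 4 groups. Missing spot values around the group mean were set to 0 for r (87 transcripts in the LT and 102 in the ST). Correlations used 100000 permutations. Custom sets took a gene name through 25 shared bases (918 of 2123 sets).

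Named transcripts were the members, up to 4 of each list with the smallest adjusted p, the 8 highest and 4 lowest r in each muscle, and the 3 highest in each stress group. Transcripts called in both muscles or in every fit, DUSP1, HIF1A and the other list members were named after their values were seen. The members and the lists were chosen with earlier results of these data known. Alternatives were other scalings, no filter on dim probes, blocks for cow, slide and scan day, the TC310369 level, and, added after the data were seen, cow280 and cow321 left out, slide as a random block and values centred within slides. The number of arrays limits the precision. Results on some measured genes are not reported here.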

Additional observations from a re-analysis of the deposited data

Results flagged for a closer look

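Cow280, in the limited stress group on the EP diet, stood apart in the ST. Its gap to the next cow was 0.651 of the whole range of the 8 cows for CEBPD and 0.606 for TC310369, both above the critical value of Dixon's test for 8 samples. CEBPD was at 13.6% of the array 75th percentile in this cow and at 5.05% in the next, and TC310369 at 25% and 8.98%. In the LT the same cow was again the highest of its group, at 6.33% and 11.8%. The 16 sets of values tested were the 4 groups of 8 cows in 2 muscles by 2 probes. Both flags came from 1 array, read by 2 probes with r = 0.96 in the ST with limited stress. They are not 2 separate events, and the 16 tests are not independent. Chance flags about 1 in 20 independent groups. Cow321 was not flagged by this test in any group. The cause was not tested.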

How the results depend on the processing

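Over all alternatives the stress difference of CEBPD stayed positive, from 1.16 to 1.85 in the LT and from 1.03 to 1.5 in the ST, and that of TC310369 from 1.72 to 2.19 and from 1.45 to 1.81. The diet difference changed sign with arrays scaled by the control features, to 0.14 for CEBPD and 0.049 for TC310369 in the LT, where this scaling moved the median of all probes to 0.20. Leaving out cow280 or cow321 gave -0.13 to 0.057 in the LT and -0.21 to 0.033 in the ST for CEBPD, and -0.23 to 0.0071 in the LT for TC310369. The lower CEBPD level in the LT with limited stress was no longer called when scaled by the control features (-0.26, where the median of all probes was 0.29), with normexp and quantile normalisation (-0.30) or unscaled (-0.40, median of all probes 0.15), and kept its call with slide as a random block (adjusted p = 0.0802, limma). With the replicate block, which pairs the muscles of a cow, TC310369 was called at -0.37. The correlation between the muscles of cows with limited stress was not called without the 2 cows farthest from the median, at 0.27 for CEBPD, 0.40 for TC310369 and 0.45 for Target334. Transcripts called for stress, 161 in the LT and 153 in the ST, numbered 35 and 38 when scaled by the control features, and 288 and 89 with the replicate block and slide together. They were 242 in the LT with the replicate block alone, and in the ST 100 with normexp, 71 with scan day, 52 with slide and 87 unscaled. Leaving out cow280 or cow321 gave 147 to 159 in the LT and 139 to 172 in the ST. Transcripts with a slope on CEBPD, 155 in the LT and 72 in the ST, numbered 3462 and 3414 when scaled by the control features, where the median slope of all probes was 0.32 and 0.29. They were 306 and 109 with normexp, 73 and 34 without the filter, 57 and 18 on the level of the other muscle of the cow (the pairing by replicate), and 38 and 7 by permutation of r. In the LT they were 298 on the TC310369 level and 34 with slide as a block. Leaving out cow280 or cow321 gave 59 to 124 in the LT and 3 to 309 in the ST. The causes were not tested. The CEBPD signal was low beside the 75th percentile, and no spot of either member was at background or flagged.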

Other observations

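None of 16 transcripts of the adipogenic cascade, several of them custom sets of the same genes, was called by limma for stress or for a slope on CEBPD in either muscle. Few of all transcripts were: 2.18% higher and 1.53% lower with stress in the LT, and 1.46% and 2.12% in the ST. Slopes were called for 1.88% (positive) and 1.72% (negative) in the LT, and 0.895% and 0.801% in the ST. The median log2 difference (stress / limited stress) of the list was -0.21 in the LT and -0.35 in the ST, where that of all transcripts was -0.05 and -0.06. Of 14 transcripts of muscle wasting, GABARAPL1 was higher with stress in both muscles, at 0.93 and 0.65. MSTN, which encodes myostatin, an inhibitor of muscle growth, was lower in the ST at -0.79 (adjusted p = 0.07, limma) and at -0.40 in the LT, where it was not called. MSTN and CAPN1, a calcium-dependent protease, had a negative slope on CEBPD in the LT. Cow321 had the lowest MSTN of the stressed cows, at 0.23% in the LT, where the median was 6.35%. In the ST it was at 1.3%, where the median was 13.6%. Without this cow, 5 of the 74 negative slopes of the LT were still called.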
